A study of Mus musculus with 12 samples.

Results

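Transcripts of the proteasome were examined in mast cells grown from the bone marrow of C57BL/6 mice. The genes were chosen by symbol, with earlier results of these data known. The rule was an Affymetrix probe set with 1 gene symbol beginning with Psma, Psmb, Psmc, Psmd, Psme, Psmf or Psmg and a digit. This gave 103 of the 45101 probe sets and 49 of 18193 genes, of which 48 were bright enough to be tested. Psmc3ip and Psme3ip1 match the symbols without being proteasome subunits and are described apart, a separation made after their values were seen, which leaves 46 proteasome genes tested. Psmb11, a catalytic subunit of the thymus, was dim on all 12 arrays and was not tested. Psme2 is not reported because its probe set carries 2 symbols.

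For 6 samples the culture medium held 30 ng/ml of interleukin 3 (IL3), and the cells were grown in it over 4 to 6 weeks. The medium of 6 others held IL3 at that dose and stem cell factor (SCF), which binds the receptor KIT. Its dose is labelled as 100 ng/ml unless another is indicated. Both groups came from the same wild-type strain, and the labels give a purity above 99%. Whether replicates were separate cultures or animals is not labelled. The p-values therefore speak of the spread among these samples alone, and that spread may be technical.

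The proteasome is the protease that destroys proteins tagged with ubiquitin. Its core particle is a barrel of alpha rings, which form the gate, and beta rings, which hold the catalytic sites. A regulatory particle of ATPases and ubiquitin-binding subunits unfolds the substrate and feeds it in. In blood cells and under interferon, immunoproteasome subunits replace the constitutive catalytic ones and favour peptides that fit MHC class I. In mast cells, as in other secretory and dividing cells, the complex is abundant, and its genes are known to be controlled together.

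Markers of the labelled cell type were bright in both groups. Of 8 mast cell genes, among them Kit, Fcer1a and Cpa3, none was dim and 0 passed the test (limma, adjusted p below 0.05, with 1, Hdc, at an unadjusted p below 0.05). The median signal of the arrays lay between 151 and 202.7. The 4 basophil genes tested were bright as well, with a summed signal of 24900 to 30720 with IL3 alone and 27210 to 29440 with SCF. This sum was mostly Cd200r3 (mean 15944 with IL3 alone and 19710 with SCF) and Gda (7187 and 5296). The means of Mcpt8 were 1600 and 807. Cd200r3 and Il3ra were higher and Gda lower (limma), where 35.4% of all genes passed. Mcpt8 did not pass, and had 4782 on IL3 replicate 1 and 437 to 1245 on the other IL3 arrays. Of 1 eosinophil and 2 dendritic cell genes tested 0 passed (limma, 1 of each list at an unadjusted p below 0.05). The summed signal of 12 neutrophil markers was highest on IL3 replicates 6 (9409) and 3 (9100). It lay between 5160 and 7269 for the remaining IL3 samples, and between 4123 and 5726 with SCF. Ctsg, dim on no array, made up most of this sum except on IL3 replicates 6 and 3. There its signal was lowest (2159 and 3293), while its group means were 4583 with IL3 alone and 4707 with SCF. The sum therefore understates how far the other markers set IL3 replicates 6 and 3 apart from the rest. Of these 12 genes, Elane and Ltf were dim on all 12 arrays. S100a9 was dim on all 6 SCF arrays and on 2 of 6 with IL3 alone, where its lowest, median and highest signals were 51.3, 395 and 3475. S100a8 was dim on the same numbers of arrays (17.2, 162 and 2153 with IL3 alone), and Mpo and Ngp were dim on all SCF arrays and on 4 of 6 with IL3 alone, with means of 129 and 164. The part of neutrophils or basophils in the results was not tested. IL3 replicates 4 and 5 had stood apart from their group in an earlier analysis, so counts are also given without them, and without IL3 replicates 3 and 6.

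By the brightest probe set of each gene, proteasome transcripts changed by less than 1.5-fold with SCF. Of the 46 genes, 4 were higher and 7 lower (limma on log2(signal + 16), Benjamini-Hochberg adjusted p below 0.05). That is 23.9%, where 35.4% of all 11429 genes passed, 18.9% as higher and 16.6% as lower. Among the 2509 genes at least as bright as the median proteasome gene, 30.4% passed. None of the 46 differed by 1.5-fold or more between the groups, where 12% of all genes and 3.19% of the bright ones did. With so small a share among bright genes, this count does not set the proteasome genes apart from them. The median absolute log2 fold change was 0.13 for the 46 genes, 0.11 for the bright genes and 0.18 for all genes. The bright set leaves out genes as dim as the dimmer proteasome genes. The 95% confidence interval of every one of the 46 lay within 1.5-fold in both directions, the widest reach being 1.39-fold for Psmg3. For every gene the brightest probe set gave these bounds. The groups did not overlap for 10 of the 46 genes, and for 19.1% of all genes. In bulk RNA, fewer cells that carry a transcript and less of it per cell cannot be told apart.

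The direction was uneven. The log2 fold change was below 0 for 30 of the 46 genes and above 0 for 16, with a median of -0.10. It was below 0 for 5282 of all 11429 genes (median 0.02). Of the 2509 genes at least as bright as the median proteasome gene, 1284 were below 0 (median -0.0048). Over the 46 genes, the mean log2 signal with IL3 alone was 12.23 ± 0.03 (SD, n = 6). With SCF added it was 12.18 ± 0.05 (SD, n = 6), and the groups overlapped. Certain arrays were often at the extremes. IL3 replicate 5 was the highest of the 12 arrays for 15 of the 46 genes, IL3+SCF replicate 2 for 11, and IL3+SCF replicate 5 was the lowest for 14. Within a group the median SD of a proteasome gene was 0.11 on the log2 scale, and that of all genes 0.16. The proteasome genes were brighter (median of the mean IL3 signals 5428, and 1625 for all genes). Spread was not compared at equal brightness.

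**Figure D1:**
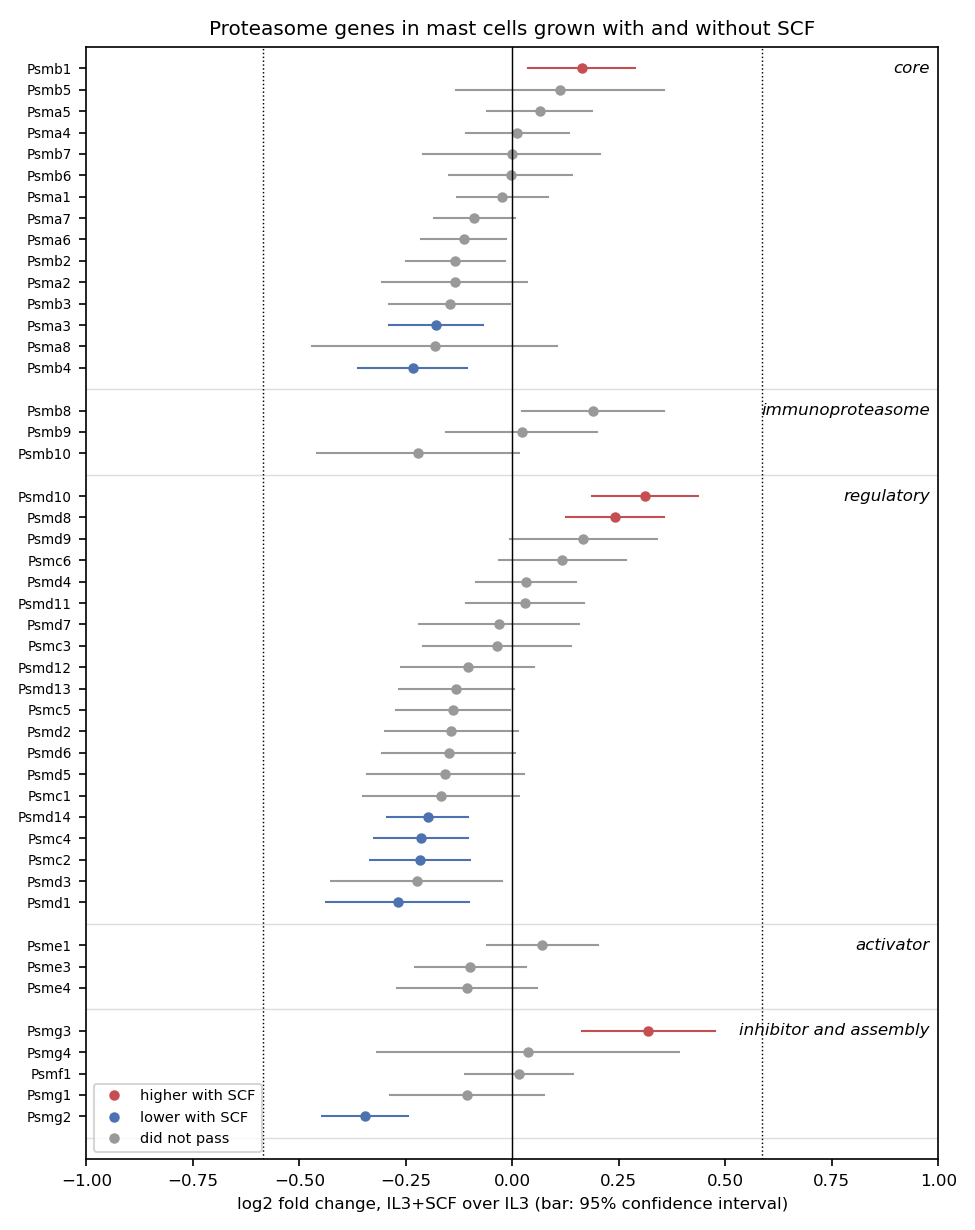
Log2 fold change of the 46 proteasome genes (points, IL3+SCF over IL3, n = 6 arrays each) with the 95% confidence interval as a bar, grouped by role and coloured by call. Dotted lines mark 1.5-fold in either direction, and every interval lies between them.

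After the arrays were centred on their medians, 2 genes were higher (Psmd10 and Psmg3) and 1 lower (Psmg2), while 24.3% of all genes passed. Without IL3 replicates 4 and 5, and likewise without 3 and 6, 3 were higher and 7 lower. That is 21.7% in each setting, where 33.3% of all genes passed without 4 and 5 and 27% without 3 and 6.

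The core particle showed 1 gene higher and 2 lower among 15 tested, or 20% against 35.4% of all genes. The median log2 fold change was -0.09. Of the 8 alpha ring genes 1 was lower, or 12.5%. That was Psma3, whose subunit sits in the alpha ring. Its signal was 10353, 10544 and 12320 (lowest, median and highest of 6) in IL3 and 9442, 9560 and 9941 in IL3+SCF. The groups did not overlap, and IL3 replicate 5 held the highest value. The log2 fold change was -0.18 ± 0.05 (SE, adjusted p = 0.01499), a call lost without IL3 replicates 3 and 6 (adjusted p = 0.05168). The other alpha ring genes, Psma1, Psma2, Psma4, Psma5, Psma6, Psma7 and Psma8, had log2 fold changes from -0.18 to 0.06 and did not pass. The mean signal of Psma8, a subunit of the testis, was 183 with IL3 alone and 162 with SCF.

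Psmb4, a beta ring subunit without a catalytic site, was lower with SCF. Its signal was 10684, 12043 and 12342 with IL3 alone and 9048, 10219 and 10673 with SCF, with no overlap. The log2 fold change was -0.23 ± 0.06 (adjusted p = 0.008056), while a dimmer probe set gave -0.12 and did not pass. Psmb1, also without a catalytic site, was higher. Its signal was 9025, 9833 and 10298 with IL3 alone and 9952, 10762 and 12256 with SCF, so the groups overlapped. The log2 fold change of 0.16 ± 0.06 (adjusted p = 0.04512) was lost without any 1 of IL3 replicates 1, 2, 3, 4 and 6 or IL3+SCF replicates 2, 3, 4, 5 and 6. Psmb2 and Psmb3 had -0.13 and -0.15 and did not pass.

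Of the 3 constitutive catalytic subunits 0 passed (limma, 0 at an unadjusted p below 0.05). Psmb5 carries the chymotrypsin-like site. Its signal was 3356, 4096 and 4438 with IL3 alone and 3334, 4337 and 5311 with SCF, and its log2 fold change was 0.11 with a 95% interval from -0.13 to 0.36. Psmb6, with the caspase-like site, had 8281, 8757 and 9504 with IL3 alone and 7949, 8739 and 10433 with SCF (interval -0.15 to 0.14). Psmb7, with the trypsin-like site, had 8753, 10616 and 11992 with IL3 alone and 8926, 10669 and 12526 with SCF (interval -0.21 to 0.21). In each of these 3 the groups overlapped over most of their range.

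The immunoproteasome counterparts were bright in both cultures and 0 of 3 passed (limma, with 1 of 3 at an unadjusted p below 0.05). Psmb8, which replaces Psmb5, had a signal of 3886, 4285 and 4626 with IL3 alone and 4314, 4830 and 5798 with SCF. Its log2 fold change of 0.19 ± 0.08 did not pass (adjusted p = 0.07272), but did without IL3+SCF replicate 1 (0.04026) or 5 (0.04552). Psmb9, which replaces Psmb6, had 4268, 4874 and 5564 in IL3 and 4328, 4987 and 5565 with SCF, and its log2 fold change was 0.02 with an interval from -0.15 to 0.20. Psmb10, which replaces Psmb7, had 3098, 4101 and 4658 with IL3 alone and 2695, 3502 and 3942 with SCF. Its log2 fold change of -0.22 ± 0.11 did not pass (adjusted p = 0.1356), but did without IL3 replicate 1 (0.03637). That array held the lowest IL3 signal of Psmb9 and Psmb10, and IL3+SCF replicate 1 the lowest signal of all 3 within its group.

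**Figure D2:**
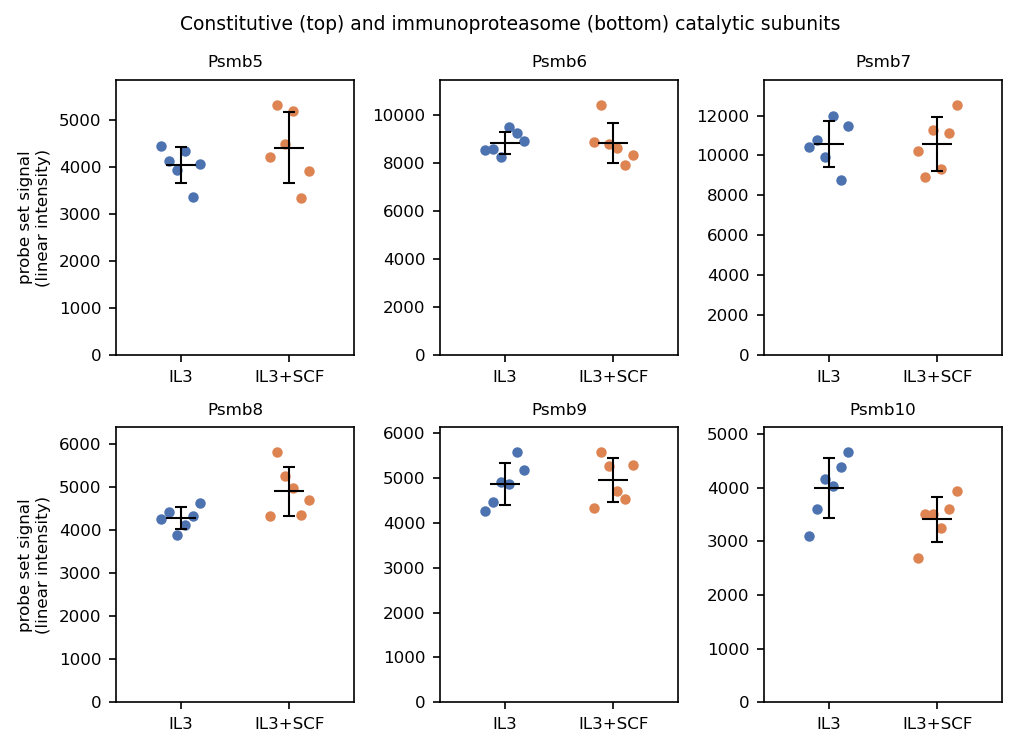
Probe set signal (linear intensity, axis from 0) of the constitutive catalytic subunits Psmb5, Psmb6 and Psmb7 and of Psmb8, Psmb9 and Psmb10 on each of the 6 IL3 and 6 IL3+SCF arrays, with mean and SD. The groups overlap in all 6 panels, and Psmb10 is the one with the lowest IL3+SCF mean relative to IL3.

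Whether an immunoproteasome subunit changed against its constitutive counterpart was tested on the difference of their log2 signals within each array. Psmb8 less Psmb5 was 0.08 higher with SCF (exact permutation test, two-sided, p = 0.4221, adjusted over 3 pairs 0.6331, higher than the IL3 median on 4 of 6 arrays). Psmb9 less Psmb6 was 0.03 higher (exact permutation p = 0.7186, adjusted 0.7186, 3 of 6 arrays). For Psmb10 less Psmb7 the difference was -0.22 (exact permutation p = 0.1429, adjusted 0.4286), with 1 of 6 IL3+SCF arrays above the IL3 median. The SD within a group was 0.12 to 0.27, and the smallest p that 6 against 6 arrays can give is 0.002165. None of the 3 ratios was shown to change.

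The sequences upstream of 4 of these catalytic genes and of Psmd10, the regulatory particle gene with the largest rise, are shown because factors known to act on proteasome genes are described with the results. They are the 250 bases before the RefSeq start (GRCm38.p6), 5′ to 3′ on the strand of the gene. The windows are chr14:54617996-54618245 (minus strand) for Psmb5, chr11:70525107-70525356 (plus) for Psmb6, chr17:34197945-34198194 (plus) for Psmb8, chr17:34187331-34187580 (minus) for Psmb9 and chrX:140956712-140956961 (minus) for Psmd10. Capitals mark matches on either strand to TGACNNNGC (the antioxidant response element read by the NRF factors), CCAAT (the box read by NF-Y) or TTCNNNGAA (a STAT site).
Psmb5: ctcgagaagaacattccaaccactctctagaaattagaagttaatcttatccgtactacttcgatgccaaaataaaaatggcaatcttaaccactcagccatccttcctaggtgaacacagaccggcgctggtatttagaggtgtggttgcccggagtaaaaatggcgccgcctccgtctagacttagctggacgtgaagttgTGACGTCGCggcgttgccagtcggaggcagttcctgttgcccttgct
Psmb6: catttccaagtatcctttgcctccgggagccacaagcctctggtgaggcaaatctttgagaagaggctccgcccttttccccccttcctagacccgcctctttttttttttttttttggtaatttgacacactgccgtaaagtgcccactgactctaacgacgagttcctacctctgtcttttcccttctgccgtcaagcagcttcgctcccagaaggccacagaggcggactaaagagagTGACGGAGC
Psmb8: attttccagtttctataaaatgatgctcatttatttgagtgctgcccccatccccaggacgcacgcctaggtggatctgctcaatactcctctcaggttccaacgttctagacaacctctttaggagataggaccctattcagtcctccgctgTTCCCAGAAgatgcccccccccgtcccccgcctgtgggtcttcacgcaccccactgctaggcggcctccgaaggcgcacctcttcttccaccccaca
Psmb9: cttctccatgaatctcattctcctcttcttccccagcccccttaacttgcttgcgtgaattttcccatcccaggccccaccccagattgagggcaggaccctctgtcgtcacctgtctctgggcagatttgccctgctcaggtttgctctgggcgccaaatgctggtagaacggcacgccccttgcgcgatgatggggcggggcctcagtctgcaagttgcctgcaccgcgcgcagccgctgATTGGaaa
Psmd10: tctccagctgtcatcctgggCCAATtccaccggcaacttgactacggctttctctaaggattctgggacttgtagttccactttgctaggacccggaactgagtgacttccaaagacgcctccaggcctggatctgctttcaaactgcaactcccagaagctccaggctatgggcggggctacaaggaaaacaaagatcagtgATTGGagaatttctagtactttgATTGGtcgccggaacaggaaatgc

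Psmb5 and Psmb6 hold TGACNNNGC, beginning 47 and 9 bases before the start, Psmb8 holds TTCNNNGAA 97 bases before it, Psmb9 holds CCAAT 8 bases before it, and Psmd10 holds CCAAT at 3 places. Promoters of 38 of the 46 genes were in the table, in 40 windows. TGACNNNGC was in 12.5% of these windows and in 10.2% of all 32851, CCAAT in 32.5% and 33.8%, and TTCNNNGAA in 5% and 7.02%. The 5 genes with TGACNNNGC were Psmb5, Psmb6, Psmc6, Psmd12 and Psmd9. Of these 5, 0 passed (limma, 0 at an unadjusted p below 0.05), where 35.4% of all genes did. A match describes the letters only.

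In the regulatory particle 2 genes were higher and 4 lower among 20 tested, with a median log2 fold change of -0.14. That is 30%, close to the 30.4% of genes at least as bright as the median proteasome gene, where 35.4% of all genes passed. The 6 ATPases, which form the ring that unfolds substrates, included 2 that were lower, or 33.3%. Psmc2 had a signal of 7043, 7401 and 8129 with IL3 alone and 6086, 6429 and 6863 with SCF (log2 fold change -0.22 ± 0.05, adjusted p = 0.007206). Another probe set of Psmc2 was also lower (-0.17), while the dimmest gave 0.15 and did not pass, and with the mean of the 3 the call was lost. Psmc4 had 8460, 8780 and 9784 with IL3 alone and 7415, 7641 and 8163 with SCF (-0.21 ± 0.05, adjusted p = 0.005298). Its other probe set, at a mean signal of 3892 in IL3, gave -0.12 and did not pass (adjusted p over probe sets = 0.3076). Both ATPases parted the groups without overlap. Psmc1, Psmc3, Psmc5 and Psmc6 had values from -0.17 to 0.12 and did not pass.

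Among the 11 non-ATPase subunits Psmd14 and Psmd1 were lower and Psmd8 was higher, or 27.3% against 35.4% of all genes. Psmd14 is the deubiquitinase that removes ubiquitin chains as the substrate enters. Its signal was 7226, 7709 and 7859 with IL3 alone and 6398, 6630 and 7019 with SCF, without overlap (-0.20 ± 0.04, adjusted p = 0.003617). Psmd1, a large scaffold subunit of the base, had 3094, 3246 and 3636 with IL3 alone and 2475, 2658 and 3339 with SCF. IL3+SCF replicate 1 held its highest value in that group and overlapped with IL3 (-0.27 ± 0.08, adjusted p = 0.01653). Psmd8, a subunit of the lid, had 8073, 8736 and 9419 with IL3 alone and 9634, 10226 and 11029 with SCF, without overlap (0.24 ± 0.05, adjusted p = 0.003499). Psmd2, Psmd3, Psmd4, Psmd6, Psmd7, Psmd11, Psmd12 and Psmd13 had values from -0.22 to 0.03 and did not pass.

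Psmd5, Psmd9 and Psmd10 encode chaperones that put the base of the regulatory particle together and leave it when it is done. Psmd10, also known as gankyrin, was higher. Its signal was 1440, 1666 and 1762 with IL3 alone and 1959, 2001 and 2225 with SCF, without overlap (log2 fold change 0.31 ± 0.06, adjusted p = 0.001096). This call was kept under all 25 alternatives tried. Psmd9 had 0.17 (adjusted p = 0.1227) and Psmd5 -0.16 (adjusted p = 0.1719).

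Of the 5 inhibitor and assembly genes 1 was higher and 1 lower, or 40% against 35.4% of all genes. Both encode chaperones of the core particle. Psmg1 and Psmg2 pair to start the alpha ring, and so do Psmg3 and Psmg4. Psmg2 had a signal of 5107, 5245 and 5331 with IL3 alone and 3690, 4180 and 4285 with SCF. The groups lay far apart, and the log2 fold change of -0.35 ± 0.05 (adjusted p = 0.0001087) was the largest fall of the 46 genes. A dimmer probe set of Psmg2 was lower as well (-0.24), and the dimmest gave -0.19 and did not pass. Psmg3 had 2003, 2121 and 2484 with IL3 alone and 2551, 2692 and 3096 with SCF, without overlap. Its log2 fold change of 0.32 ± 0.07 (adjusted p = 0.004167) was the largest rise, while a probe set at a mean signal of 177 in IL3 gave 0.12 and did not pass, and with the mean of both the call was lost (adjusted p = 0.1854). Psmg1 had 1363, 1566 and 1744 with IL3 alone and 1248, 1425 and 1644 with SCF (-0.11, interval -0.29 to 0.07). Psmg4 had 523, 690 and 748 with IL3 alone and 409, 696 and 834 with SCF (0.04, interval -0.32 to 0.39), the widest interval of these chaperones.

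**Figure D3:**
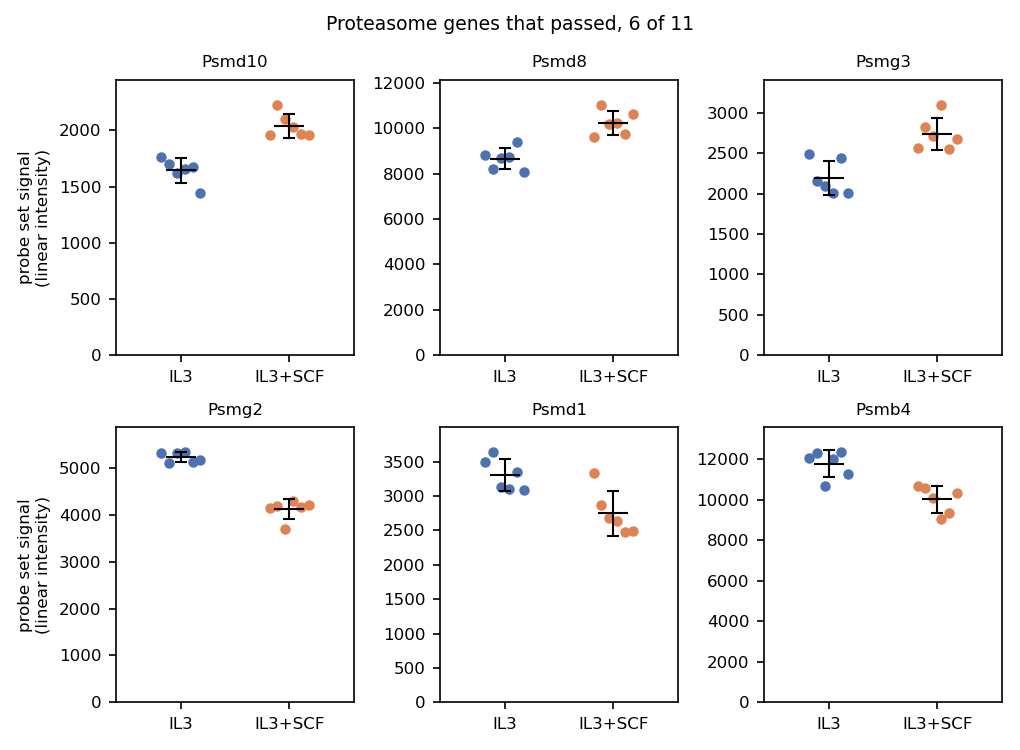
Probe set signal (linear intensity, axis from 0) of 6 of the 11 proteasome genes that passed, on each array with mean and SD (n = 6 per group). Psmd10, Psmd8 and Psmg3 are higher and Psmg2, Psmd1 and Psmb4 lower with SCF, and in these panels Psmd1 is the one with overlapping groups.

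Activators of the core particle, which open its gate in place of the regulatory particle, had 0 of 3 genes past the test (limma, 0 of 3 at an unadjusted p below 0.05). Psme1, a subunit of the interferon-inducible PA28 cap, had a signal of 11060, 11395 and 13114 with IL3 alone and 11064, 12028 and 13547 with SCF (0.07, interval -0.06 to 0.20). Psme3, the nuclear PA28 gamma, had 4523, 5490 and 5559 with IL3 alone and 4719, 4868 and 5187 with SCF (-0.10 ± 0.06). It passed without IL3 replicate 5, whose signal was the lowest (log2 fold change -0.14, adjusted p = 0.03524). Psme4, which encodes the cap PA200, had 4839, 5137 and 5721 with IL3 alone and 3969, 4860 and 5374 with SCF (-0.11, interval -0.27 to 0.06). The inhibitor gene Psmf1, whose product is PI31, had 762, 809 and 919 with IL3 alone and 760, 849 and 894 with SCF (0.01, interval -0.11 to 0.14), but other probe sets differed.

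The probe sets of a gene did not always give the same value. Of 91 kept proteasome probe sets 6 were higher and 16 lower (limma, adjusted over probe sets), or 24.2%, where 30.9% of all kept probe sets passed, 17.3% as higher and 13.6% as lower. Without IL3 replicates 3 and 6, 6 were higher and 9 lower, and after median centring of the arrays 3 and 7. The share of all kept probe sets was not computed in these settings, where 27% and 24.3% of all genes passed. These counts therefore cannot be read against the 30.9%. In no gene did probe sets pass in opposite directions. In 8 genes a dimmer probe set passed where the brightest did not. For Psma6, an alpha ring gene, 1435316_at had a signal of 282, 495 and 618 with IL3 alone and 202, 233 and 279 with SCF. Its log2 fold change was -0.94 ± 0.16 (adjusted p = 0.0007148), and that of 1435317_x_at was -0.63 ± 0.08, while the brightest probe set had -0.11. These were the 2 probe sets of the 91 with a fold of 1.5 or more.

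For Psmf1, 1424371_at had 253, 357 and 361 with IL3 alone and 395, 446 and 501 with SCF (0.40 ± 0.10, adjusted p = 0.008768). A further Psmf1 probe set, 1424370_s_at, gave 0.23 and passed as well. Psmd13 had -0.37 from 1437220_x_at, whose signal is close to that of its brightest probe set. Psmd11 had -0.35 from 1440253_at, Psma5 -0.46, Psmd9 -0.49 and Psmd6 -0.16, while a Psmd7 probe set with a mean signal of 169 in IL3 gave 0.50. Which transcripts these probe sets read was not tested.

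**Figure D4:**
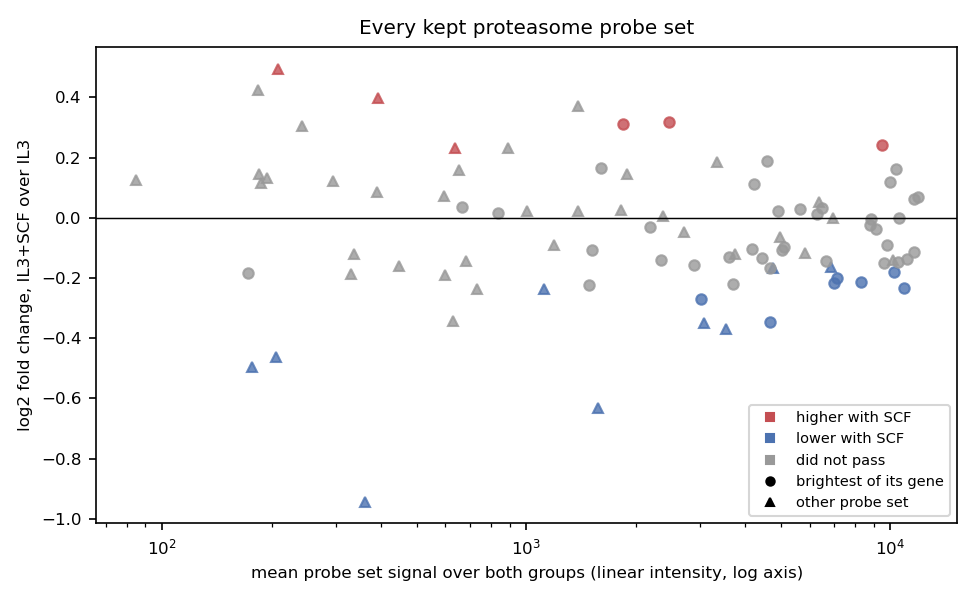
Log2 fold change (IL3+SCF over IL3) of the 91 kept proteasome probe sets against their mean signal on a log axis, with circles for the brightest of each gene and triangles for the others. The farthest point from 0 is a Psma6 probe set at -0.94, and the circles lie between -0.35 and 0.32.

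Both genes that match the symbols without being subunits passed. Psmc3ip, which encodes HOP2, a partner of recombinases in meiosis, had the largest change of the 48. Its signal was 306, 356 and 430 with IL3 alone and 128, 152 and 170 with SCF, with every SCF array below every IL3 array. The log2 fold change was -1.18 ± 0.10 (adjusted p = 1.998e-06), and its other probe set gave -1.12. Transcripts of dividing cells moved with it: 7 of 7 proliferation genes tested were lower (limma), where 16.6% of all genes were. Their summed signal was 21280 to 25110 with IL3 alone and 11100 to 14820 with SCF. Their part in the result was not tested. Psme3ip1, whose product binds PA28 gamma, had 2153, 2266 and 2786 with IL3 alone and 2612, 2731 and 2837 with SCF (0.21 ± 0.06, adjusted p = 0.02468), a call lost without any 1 of IL3 replicates 2, 3, 4 and 6 or IL3+SCF replicate 2, and after median centring.

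Of 11 tested genes on a list of proteasome gene control (the NRF factors, their partners and processing enzymes, and Akirin2, which serves nuclear import of proteasomes), 2 were higher and 2 lower, or 36.4%, close to the 35.4% of all genes. Nfe2l1 encodes NRF1, which raises proteasome genes when proteolysis falls short. Its signal was 4851, 5623 and 6388 with IL3 alone and 6272, 6487 and 7412 with SCF, with overlap at 1 IL3 array (0.26 ± 0.07, adjusted p = 0.01238). This call was lost without IL3 replicates 3 and 6 (adjusted p = 0.05315) and after median centring (0.07159). Nfe2l2 encodes NRF2, the factor of the oxidative stress response, and its probe sets disagreed. The brighter had 4912, 5448 and 6416 with IL3 alone and 7743, 8948 and 9763 with SCF (0.65 ± 0.08, adjusted p = 5.391e-05). The other, 1457117_at, had 4309, 5222 and 5766 with IL3 alone and 2306, 2737 and 3037 with SCF (-0.93 ± 0.09, adjusted p over probe sets = 9.643e-06). No direction can therefore be given for Nfe2l2.

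The small MAF proteins are partners of both factors on DNA. Mafk had a signal of 3510, 3859 and 4381 with IL3 alone and 2244, 2472 and 2846 with SCF (-0.62 ± 0.07, adjusted p = 4.501e-05). Maff fell by 1.45 ± 0.18 on the log2 scale (adjusted p = 4.892e-05), from 110, 209 and 221 to 44, 53 and 82, where it was dim on 5 of 6 arrays. Neither had overlapping groups. Mafg, Keap1, Fbxw7, Vcp, Ngly1, Akirin2 and Nfe2l3 did not pass.

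**Figure D5:**
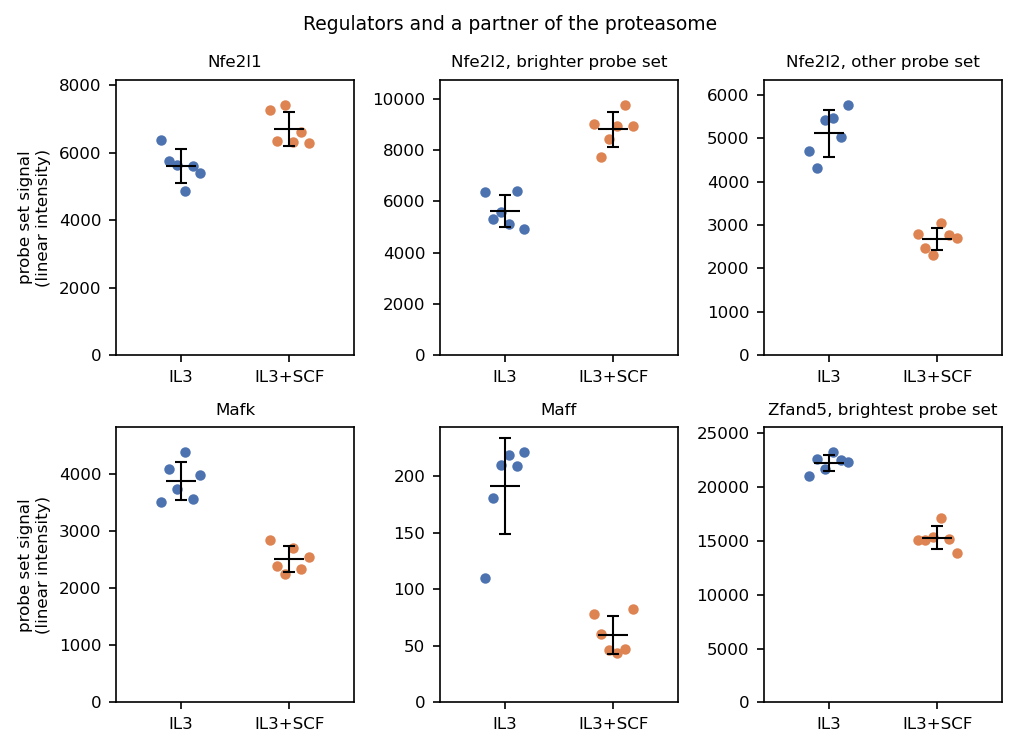
Probe set signal (linear intensity, axis from 0) of Nfe2l1, both probe sets of Nfe2l2, Mafk, Maff and Zfand5 on each array with mean and SD (n = 6 per group). The Nfe2l2 probe sets run in opposite directions, and Mafk, Maff and Zfand5 are lower with SCF without overlap.

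Among 11 further proteins of the proteasome 1 was higher and 3 lower, or 36.4%, close to the 35.4% of all genes. Zfand5, a zinc finger protein that stimulates the proteasome, had a signal of 21020, 22464 and 23250 with IL3 alone and 13865, 15145 and 17166 with SCF (-0.54 ± 0.05, adjusted p = 1.076e-05). Of its 6 kept probe sets 4 passed as lower, and 1 of the other 2, at a mean signal of 13906 in IL3, gave -0.00. Uchl5, a deubiquitinase of the regulatory particle, had -0.21 ± 0.06 (adjusted p = 0.0127), a call lost after median centring (0.1192), when its probe sets were averaged (0.1239) and when the most variable was used (0.391). Txnl1, a thioredoxin bound to the regulatory particle and named after its values were seen, had -0.21, and its other kept probe sets did not pass. Zfand2b was higher (0.28 ± 0.08, adjusted p = 0.0131), as was its other probe set, but the call was lost after median centring (0.09202). Pomp, the maturation factor of the core particle, had -0.10 and did not pass.

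Of 7 ubiquitin genes tested 1 passed, or 14.3% against 35.4% of all genes. This was Uba6, an E1 enzyme that activates ubiquitin and FAT10. It had a signal of 2325, 2634 and 3133 with IL3 alone and 3689, 3866 and 3963 with SCF, without overlap (0.53 ± 0.08, adjusted p = 0.0001745), and 4 of its 5 probe sets passed.

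Of 11 genes that help carry proteasome peptides to MHC class I, 0 were higher and 3 lower, or 27.3% against 35.4% of all genes (limma; 5 at an unadjusted p below 0.05, none of them higher). Tap1 and Tap2, the peptide transporter, had 0.00 and -0.03, and H2-K1, H2-D1 and B2m had 0.02, -0.00 and -0.09. Calr, a chaperone of the loading complex, had 26198, 27876 and 29853 with IL3 alone and 21474, 22994 and 24461 with SCF (-0.29 ± 0.05, adjusted p = 0.0006701). Tapbpl, a tapasin-related peptide editor, had -0.38 ± 0.09 (adjusted p = 0.005696), and Erap1, named after its values were seen, had -0.25 (adjusted p = 0.04085).

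Among 15 genes of interferon signalling and immunoproteasome control 4 were higher and 2 lower, or 40% against 35.4% of all genes. Nlrc5, the transactivator of MHC class I genes, had a signal of 425, 748 and 1026 with IL3 alone and 203, 308 and 362 with SCF (-1.20 ± 0.20, adjusted p = 0.0005527). Stat3 had 3991, 4210 and 4549 with IL3 alone and 2759, 2823 and 3086 with SCF (-0.55 ± 0.05, adjusted p = 3.555e-06). Irf9 and Ifngr2 were higher (0.43 ± 0.08 and 0.63 ± 0.16, adjusted p = 0.001001 and 0.009478), as were Ifnar2 and Ifnar1 (0.30 and 0.21), named after their values were seen. Irf1, which drives immunoproteasome genes, had 0.09 and did not pass. Monocyte and macrophage markers moved in both directions: of 6 tested 1 was higher and 3 lower (limma), where 35.4% of all genes passed. Cx3cr1 (mean 6563 with IL3 alone and 417 with SCF), Lyz1 (4887 and 1242) and Lyz2 (2188 and 709) were lower. Cd68 was higher (492 and 1225) without overlap, and Adgre1 and Ccr2 did not pass. The sum over 8 markers, 12810 to 17480 with IL3 alone and 4144 to 5166 with SCF, was mostly Cx3cr1 and Lyz1 in IL3. Cd14 was dim on all 12 arrays. Their part in these results was not tested.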

How the data were processed

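Per the labels' protocols, 50 ng of RNA was amplified and hybridised to 1 Affymetrix array per sample. The authors deposited intensities for each probe set on a linear scale, and the submitters' processing notes name GCOS 1.4. How background was corrected is not stated in the labels or headers. With 2% trimmed at either end, all arrays had a mean of 1250.01 and so shared a scale.

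Analysis used log2(signal + 16), which shrinks the fold changes of dim genes. Probe sets above the 40th percentile of an array on 6 or more arrays were kept, and signals at or under that percentile are called dim. The brightest kept probe set with 1 symbol stood for its gene, for 11429 genes. A second fit used all 27167 kept probe sets. The main test was limma 3.58.1 (lmFit, eBayes) under R 4.3.3, two-sided and without covariates. Benjamini-Hochberg adjustment ran over the whole table, with a threshold of 0.05. Adjusted p-values in the text are from this test unless named otherwise. Subunit ratios were compared by an exact permutation test. Scripts were tested on simulated data. Plots came from matplotlib 3.10.9 (Python 3.11.15). All 48 tested genes matched RefSeq by Entrez identifier, with 0 differences in symbol.

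Named with values were the catalytic, immunoproteasome, activator, inhibitor and assembly genes, and up to 5 higher and 5 lower that passed in the core and in the regulatory particle, by size of change; other members are given by range. Partner genes were named as the members of set lists with the largest changes, at most 2 higher and 2 lower for each list, with a few set by name. Members and lists were chosen with earlier results of these data known. Alternatives were other normalizations, pseudocounts, filters, choices of probe set and variance models, the replicate number as a block, and arrays left out. Replicate numbers did not pair the samples.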

Additional observations from a re-analysis of the deposited data

Results flagged for a closer look

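In 3 of 88 groups of 6 signals examined, 1 array lay far from the other 5, where chance gives about 1 in 20 groups. Psme1 had a signal of 13114.1 on IL3 replicate 6 and 11059.7 to 11461.0 on the other IL3 arrays. Psmg2 had 3690.1 on IL3+SCF replicate 3 and 4150.4 to 4285.4 on the others of its group. Maff had 109.9 on IL3 replicate 1 and 180.9 to 220.9 on the other IL3 arrays.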

How the results depend on the processing

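After median centring of the arrays, 1369 of all genes were higher. In that setting 2 proteasome genes were higher and 1 lower, of which core genes made up 0 and 0 (limma) and regulatory genes 1 and 0. Partner genes numbered 5 higher, and proteasome probe sets 3 higher and 7 lower. Core genes numbered 0 higher with no filter, with the most variable probe set, under the replicate block, and when IL3 replicates 4 and 5 or 3 and 6 were left out. Core genes numbered 1 lower with the block and without 3 and 6. Proteasome probe sets lower numbered 10 with no filter, 8 with the block and 9 without 3 and 6. The share of all kept probe sets was computed for the main fit alone. Inhibitor and assembly genes numbered 0 lower with the most variable probe set. Immunoproteasome genes numbered 1 higher with trend and robust eBayes or array weights (Psmb8) and 1 lower with the block (Psmb10, adjusted p = 0.02785). With the replicate block 3 proteasome genes were higher and 7 lower, or 21.7%, where 29.1% of all genes passed. Replicate numbers did not pair the samples: 2 of 6 same-numbered pairs correlated above 0.1, and 1 of 6 samples correlated best with its own number. Nfe2l2 turned to -0.14 with the mean of its probe sets and to -0.93 with the most variable, and Psmc2 to 0.15 with the most variable. Leaving out 1 array gave 1868 to 2462 of all genes higher and 1740 to 1933 lower, and 3 to 5 proteasome genes higher and 7 to 8 lower. The same gave core 0 to 1 higher and 2 to 3 lower, immunoproteasome 0 to 1 either way, activators 0 to 1 lower, partners 8 higher and 9 to 13 lower, and probe sets 5 to 8 higher and 11 to 15 lower. The ratio changes ran from 0.03 to 0.13 (Psmb8 less Psmb5), -0.0103 to 0.0654 (Psmb9 less Psmb6) and -0.29 to -0.14 (Psmb10 less Psmb7). The causes of these shifts were not tested. The number of arrays limits the precision.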
